A study of Schmidtea mediterranea with 2 samples.

Results

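In trunk cells of the planarian Schmidtea mediterranea, 100 genes were gathered around SMESG000002628.1 (the seed gene) by how much higher their transcripts were in cells that carried the seed than in cells without it. Cells with at least 200 detected genes in the control library were divided by their seed count in unique molecular identifiers (UMIs, each standing for 1 captured transcript). UMIs were summed over the 207 cells with at least 3 seed UMIs (seed-positive cells) and over the 5683 cells with 0 (zero-seed cells). They were then expressed as counts per 1000000 of that sum (CPM). Among 10524 genes with at least 50 UMIs in the control library, of 22016 features in all, the 100 with the highest ratio of (CPM + 10) in seed-positive over zero-seed cells were taken. The seed is 1 of the 100, and the other 99 are called members below. The members were chosen by these control values, so for the control library they are a description and carry no test.

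The study compared animals of strain CIW4 given control RNA interference (RNAi) with animals of the same strain given RNAi against foxA, with 1 single-cell library per condition. Each library came from the pooled trunks of 50 animals. Live nucleated cells were sorted with DRAQ5, a DNA dye, and Calcein-AM, a dye that living cells turn fluorescent, and were captured in droplets for 3′ end sequencing after guide-directed removal of 16S ribosomal cDNA with 30 guides. The control library kept 5978 cells with a median of 563 UMIs and 411 genes, and the foxA library kept 6781 cells with a median of 904 UMIs and 624 genes. The ages of the animals and the length of the RNAi treatment were not given in the sources used here, and no identifier for foxA was at hand to look up its level, so directions rest on the library labels. The 2 libraries shared 13 cell barcodes, of which 2 marked a seed-positive cell in either library.

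Planarians replace all their tissues from dividing stem cells, the neoblasts, and a dissociated trunk holds those cells, their maturing progeny and many differentiated types. foxA encodes a forkhead transcription factor known in planarians for its part in building the pharynx, the muscular feeding tube of the trunk. In RNAi, double-stranded RNA matching a transcript triggers the breakdown of that transcript. The files give every gene by its identifier alone, so no role is given for the seed or for any member, and the groups of cells below keep numbers or names taken from their seed level. Members are therefore ordered by where they were found: with the seed in all its cells, in related cells without the seed, in a few seed-positive cells only, or in other cells as well.

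The seed was found in few cells. The control library held 1639 of its UMIs and the foxA library 4818. In the control library 207 of 5978 cells were seed-positive, a share of 3.46% (3.01% to 3.96%, exact Clopper-Pearson 95% interval). In the foxA library 390 of 6781 cells were, a share of 5.75% (5.21% to 6.33%). The foxA share was the higher one, with a log2 ratio of 0.73 (0.49 to 0.98). All intervals here cover counting error only, and PCR, pooling of animals and cell capture add variation that 1 library per condition cannot show.

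Depth moved with this difference. The median seed-positive cell held 876 UMIs (control) or 1358 (foxA), while the medians of zero-seed cells were 553 and 882. Drawing 400 UMIs at random from each cell dropped 1438 shallower control cells (24.1%) and no foxA cell. Of the rest, 105 of 4540 control cells (2.31%) and 216 of 6781 foxA cells (3.19%) still held at least 3 seed UMIs. The log2 ratio was then 0.46 (0.12 to 0.81). Among cells with at least 500 genes it was 0.23 (-0.07 to 0.55), with 119 of 2039 control cells and 322 of 4694 foxA cells, and this interval spanned 0. Seed-positive cells were thus a larger share of the foxA library in each count, by an amount that depended on how depth was treated.

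The members made up a large part of the RNA of seed-positive cells. The 99 members together held a median of 16.9% of the UMIs of a control seed-positive cell (5th to 95th percentile, 5.19% to 25.5%). The median was 16.8% in the foxA library (4.33% to 25.1%). In zero-seed cells the median was 0% in both libraries, and the members' share of the summed UMIs was 0.235% in control and 0.328% in foxA cells. The share per cell differed little between libraries for seed-positive cells and was far lower in cells without the seed.

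The median share was higher in cells with more seed UMIs, most of all between cells with 1 or 2 and cells with 3 to 5. Control cells with 3 to 5 seed UMIs had a median member share of 15.4%, those with 6 to 10 had 16.8% and those with over 10 had 18.8%. The same medians in the foxA library were 14.3%, 17.0% and 18.0%. Cells with 1 or 2 seed UMIs, 88 in the control and 137 in the foxA library, had medians of 5.38% and 1.30%. The medians of these cells differed by cluster. Those in the cluster that held most seed-positive cells (cluster 5, described below) had medians of 15.1% in control and 14.0% in foxA cells, whereas those outside it had 0.67% and 0.17%. Outside cluster 5, cells with 1 or 2 seed UMIs thus carried few member UMIs. The members took part in the clustering, so this division describes the cells and is no evidence for separate kinds.

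**Figure D1:**
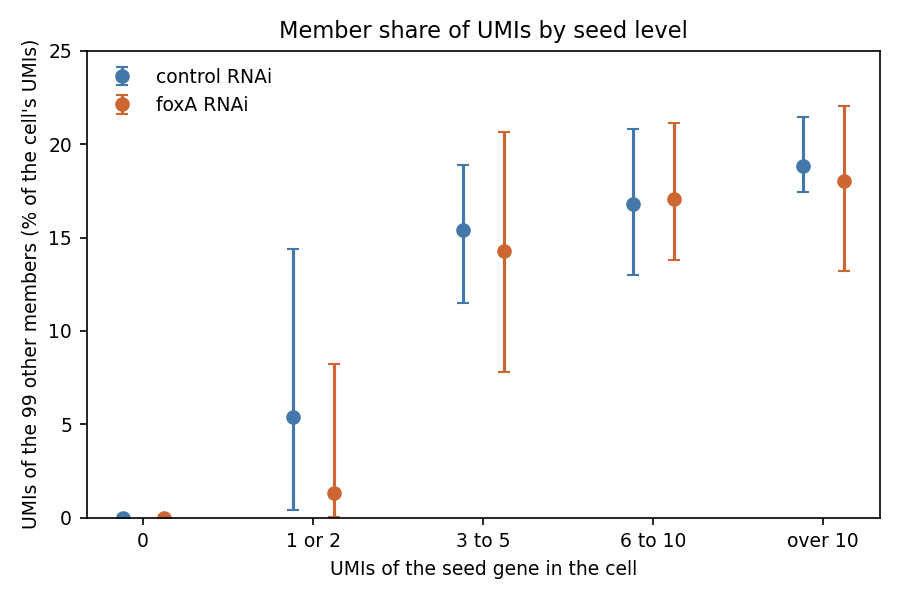
Share of a cell's UMIs that came from the 99 members (vertical axis, percent) by the number of seed UMIs in the cell (horizontal axis), for the control library (blue) and the foxA library (orange). Points are medians over cells and bars run from the lower to the upper quartile; the medians are 0 without the seed and lie between 14.3% and 18.8% in cells with 3 or more seed UMIs.

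In the contrast that chose them, all 99 members were at least 2-fold higher in seed-positive cells, beside 9.23% of genes. The rule fixed the count of members, and nothing is read from it. Their ratios in the control library ran from 169 down to 18.8, with a median of 30.4, beside 679 for the seed itself. The highest member, SMESG000038351.1, had 5710 CPM in seed-positive cells and 23.8 CPM in zero-seed cells. It was followed by SMESG000026791.1 (ratio 138), SMESG000055421.1 (115), SMESG000070256.1 (107) and SMESG000025209.1 (103). SMESG000080919.1, SMESG000077798.1, SMESG000065495.1 and SMESG000080705.1 had ratios between 88.4 and 99.7. The boundary of the list lay in a dense stretch of values. The last 3 inside, SMESG000043646.1, SMESG000012426.1 and SMESG000045072.1, had ratios of 18.92, 18.90 and 18.82. The first 3 outside, SMESG000022762.1, SMESG000018672.1 and SMESG000046855.1, had 18.66, 18.65 and 18.56. The lists that the same rule gave for SMESG000036375.1, SMESG000024991.1, SMESG000075230.1, SMESG000029602.1 and SMESG000019976.1 shared 0 of their 100 genes with this one. Each list takes 100 of 10524 genes, so unrelated lists would also share few genes, and nothing is read from this. Lists for other seeds are not given here.

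The foxA library was not used in the choice and gave a second measurement of the enrichment. There all 99 members were at least 2-fold higher in seed-positive than in zero-seed cells, beside 9.83% of the 12061 genes with at least 50 UMIs in that library. Of the 99, 94 were at least 10-fold higher, beside 1.66% of those genes. The ratios ran from 7.69 to 135 with a median of 23.8. Ranked by the foxA ratio, 77 of the 99 were among the 100 highest genes and 94 among the 200 highest. The members at the low end in the foxA library included SMESG000019342.1, whose ratio of 30.8 in control cells was 7.69 in foxA cells.

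**Figure D2:**
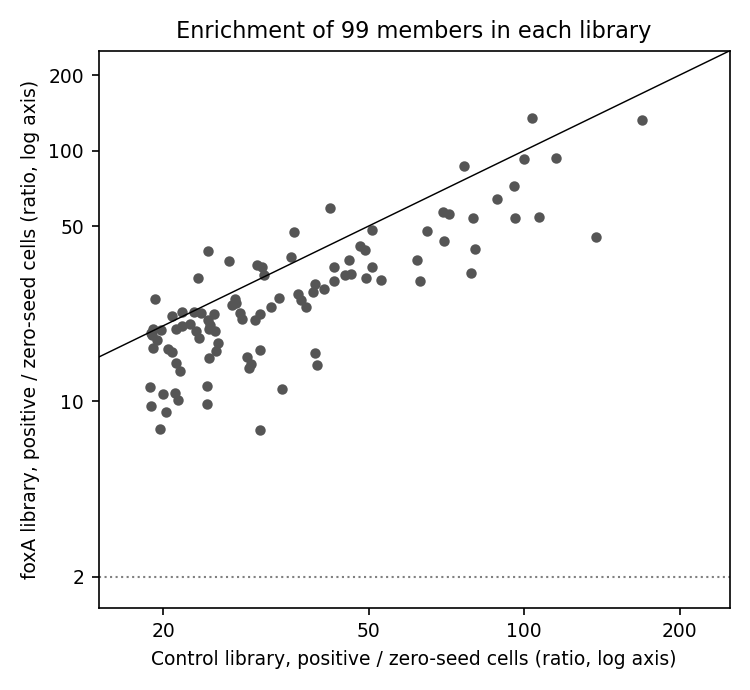
Ratio of (CPM + 10) in seed-positive over zero-seed cells for each of the 99 members in the control library (horizontal, log axis), which chose them, and in the foxA library (vertical, log axis). The solid line marks equal ratios and the dotted line a ratio of 2; every point lies above the dotted line, and the lowest foxA ratio is 7.69.

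Cells with only 1 or 2 seed UMIs gave the same picture at lower contrast. In the foxA library 96 of 99 members were at least 2-fold higher in these cells than in zero-seed cells, beside 5.71% of genes, with a median ratio of 6.48. In the control library 96 of 99 were at least 2-fold higher, beside 8.11% of genes, with a median of 17.0, although the zero-seed cells in that ratio are those the rule used.

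The members differed widely in how many of the seed-positive cells carried them. SMESG000055421.1 gave the most UMIs, 10110 in the control and 29849 in the foxA library. Its level in seed-positive cells was 34520 CPM in control and 41706 CPM in foxA, and it was detected in 98.1% and 97.2% of these cells. In zero-seed cells it stood at 289 and 436 CPM and was detected in 3.75% and 7.50% of cells. It was thus present in nearly every seed-positive cell and in a small share of the others, at median depths of 553 and 882 UMIs. SMESG000004901.1 was detected in 97.1% and 97.7% of seed-positive cells, SMESG000003089.1 in 93.7% and 96.2%, and SMESG000037203.1 in 88.9% and 93.6%. Over all 99 members the median detection was 42.0% of seed-positive cells for control and 46.9% for foxA. In seed-positive cells thinned to 400 UMIs, these medians were 22.3% and 18.7%, and 14 members in each library were detected in at least 50% of the cells. At this depth most members were therefore missing from most single seed-positive cells, and a member's absence from 1 cell cannot be told apart from a missed transcript.

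Specificity was measured as the percent of a member's UMIs that lay in seed-positive cells. The median was 70.3% in the control library (48.0% to 96.5% over the 99 members) and 75.8% in the foxA library (42.4% to 94.6%). More than 50% of the UMIs lay in seed-positive cells for 97 members in the control and 95 in the foxA library. The percent was higher in the foxA library for 73. Shares over all genes are not given for these counts. Seed-positive cells were 3.46% of control and 5.75% of foxA cells, and a larger share by itself raises the percent. The median ratio over zero-seed cells was 30.4 in control and 23.8 in foxA, so the higher percent is not read as greater specificity. SMESG000046938.1 had the highest percent in control cells, 96.5% of 57 UMIs, followed by SMESG000026791.1 with 94.5% of 584 UMIs, while the seed itself had 92.6%. The lowest were SMESG000003089.1 with 48.0%, SMESG000023352.1 with 49.7% and SMESG000048413.1 with 50.8%. The seed's percent is partly set by the threshold of 3 UMIs, and the percents of the members fell when positive cells were defined more strictly.

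Member levels were also read in groups of cells with little or no seed. The part of free RNA in these levels was not tested. In cluster 1, the largest, 0.382% of 1308 control cells and 0.915% of 1420 foxA cells held a seed UMI, at median depths of 541 and 915.5 UMIs. In cluster 1 SMESG000055421.1 stood at 39.4 CPM, beside 38112 CPM in cluster 5, and SMESG000038351.1 at 0.41 CPM beside 5401. In clusters 23 and 27, which held 0 seed UMIs, SMESG000055421.1 stood at 64.5 and 92.5 CPM and SMESG000038351.1 at 10.8 and 0 CPM. SMESG000037203.1 was the exception among the abundant members, with 321 CPM in cluster 1 and 3996 CPM in cluster 5. Outside clusters 5, 13 and 16, 37 of 5288 control cells (0.70%) and 97 of 6167 foxA cells (1.57%) held a seed UMI.

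When the 12759 cells of both libraries were clustered together, the seed and its members pointed to 1 cluster of 27. Cluster 5 held 187 of the 207 control and 351 of the 390 foxA seed-positive cells, out of 265 and 457 cells in all. The seed stood at 6505 CPM there. Of the 99 members, 94 had their highest level in cluster 5, beside 3.16% of 11477 genes. These genes took part in the clustering, so the counts describe the cluster and do not test it. With the members and the seed left out of the clustering, 85 of the 99 were highest in the cluster with most seed-positive cells. Taken by library, in the clustering with all genes, the count was 95 among control cells and 78 among foxA cells, where cluster 13 was represented by 1 cell. Shares over all genes are not given for these alternative counts.

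**Figure D3:**
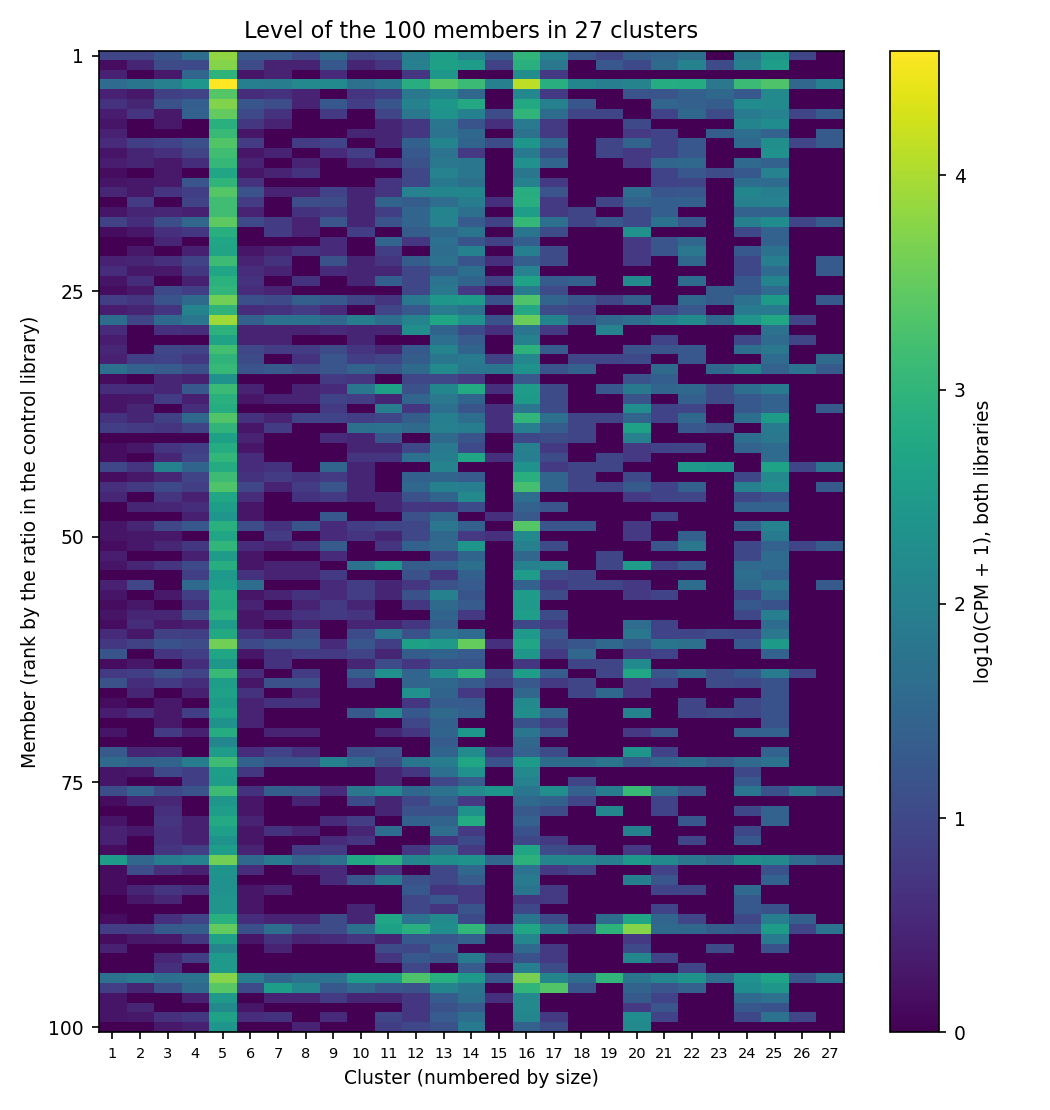
Level of the seed (top row) and the 99 members (rows, ordered by rank in the control library) in each of 27 clusters (columns) as log10 of (CPM + 1) over both libraries. Cluster 5 is the bright column, cluster 16 a paler one, and 94 of the 99 members are highest in cluster 5.

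A second cluster carried many members at lower levels. Cluster 16 had 103 control and 156 foxA cells, of which 5 and 24 were seed-positive. Its median member share was 3.76% of a control cell's UMIs and 3.62% of a foxA cell's. Cluster 16 was the next highest cluster for 47 members and the highest for 3. Shares over all genes are not given for these counts or for those in other clusters below. SMESG000019342.1 was the clearest of the members highest in cluster 16, with 2376 CPM there and 820 CPM in cluster 5.

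Some members were also high in other clusters. For 13 of the 99, a cluster other than 5 and 16 reached at least 50% of the level in cluster 5. SMESG000048413.1 stood at 5525 CPM in cluster 20 and 2961 CPM in cluster 5. SMESG000016663.1 stood at 1253 CPM in cluster 20 and 1374 CPM in cluster 5, and SMESG000023352.1 at 2130 CPM in cluster 17 and 2491 CPM in cluster 5. For 10 members no cluster but 5 reached 10% of the level in cluster 5. The members thus ranged from genes found almost entirely with the seed to genes as high in another cluster.

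Cluster 13 held 322 control cells and 1 foxA cell, and 11 of its control cells were seed-positive. Those 11 had a median of 1496 UMIs, beside 597.5 for the cluster's control cells, and a median member share of 8.50%. No doublets were removed from the data, and the part of doublets in these 11 cells was not tested. Restricting seed-positive cells to cluster 5 left a log2 ratio of shares of 0.73 (0.47 to 0.99).

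A finer clustering divided the cells that carried the members into 3 groups, taken as the clusters in which members held more than 2% of the UMIs. The division was chosen after the values were seen, and its counts are descriptions. The seed-high group had 218 control and 362 foxA cells with 6355 and 7781 CPM of the seed. The intermediate group had 121 and 191 cells with 2177 and 1788 CPM. The seed-poor group had 41 and 64 cells, in which the seed gave 3 and 4 UMIs in all, or 107 and 62.5 CPM. Members made up a median of 17.5% of a cell's UMIs in the seed-high group in both libraries, 5.23% and 4.71% in the intermediate group, and 9.68% and 10.2% in the seed-poor group. The seed-poor cells therefore carried a large amount of member RNA with almost no seed.

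The members ranged widely in their seed-poor level. Of the 99, 28 reached at least 50% of their seed-high level there and 14 of these exceeded it. Shares over all genes are not given for these levels, so the counts only describe the members. SMESG000055421.1 stood at 28624 CPM in the seed-poor and 43903 CPM in the seed-high group, and SMESG000004901.1 at 5015 and 8132 CPM. SMESG000019342.1 was higher in the seed-poor group, at 5547 CPM beside 833 CPM. Another 24 members lay between 10% and 50% of their seed-high level, among them SMESG000038351.1 with 1324 CPM beside 6272 CPM.

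For 45 members the seed-poor level was under 10% of the seed-high level. In the seed-poor group 23 members had 0 UMIs, which allows up to 3 UMIs for each. Here too the shares over all genes are not given. The seed-poor group held few UMIs, 28156 in control and 63970 in foxA, beside 216356 and 546345 in the seed-high group. SMESG000025209.1, which was in 92.3% of control seed-positive cells, stood at 97.7 CPM in the seed-poor and 5765 CPM in the seed-high group. SMESG000070256.1 stood at 43.4 and 2321 CPM. For SMESG000065495.1 the seed-poor group gave 0 UMIs and the seed-high group 1281 CPM. The last 2 members, SMESG000026791.1 and SMESG000046938.1, had 0 UMIs in both of these groups and stood at 3019 and 409 CPM in the intermediate group. In the foxA library alone, 60 of the 99 members were at least 2-fold higher in the seed-poor group than in cells outside the 3 groups, beside 7.86% of genes. For the intermediate group the count was 91 of 99, beside 8.18%. The foxA cells helped to form the groups, and the groups were taken for their member UMIs. These 2 counts are therefore partly built in and test nothing. The median level of the 28 shared members was 821 CPM in the seed-high and 1053 CPM in the seed-poor group, and that of the 45 was 587 and 10.9 CPM.

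**Figure D4:**
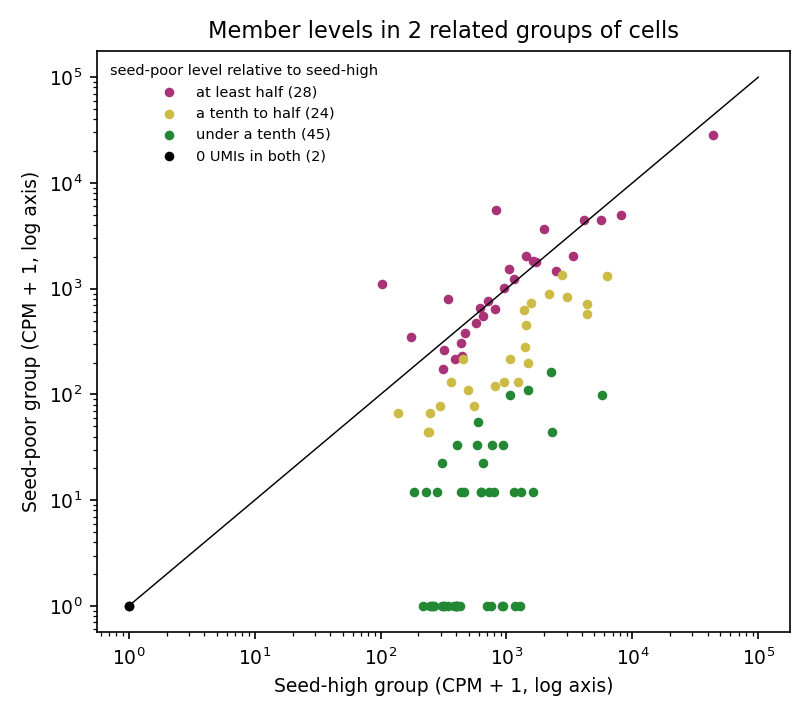
Level of each of the 99 members in the seed-high group (horizontal) and in the seed-poor group (vertical) as CPM + 1 on log axes, over both libraries, coloured by the seed-poor level relative to the seed-high level. The line marks equal levels; 28 members lie at 50% or more of the seed-high level, 45 under 10% of it, and 2 have 0 UMIs in both groups.

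Each of the 3 groups was a larger share of the foxA library, although for 1 of them the interval spanned 0. The seed-high group was 3.65% of control and 5.34% of foxA cells, a log2 ratio of 0.55 (0.30 to 0.80). The intermediate group had a log2 ratio of 0.48 (0.14 to 0.82). The seed-poor group was 0.69% of control and 0.94% of foxA cells, a log2 ratio of 0.46 (-0.13 to 1.06).

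Within seed-positive cells a few members belonged to a small subset. Correlations of log levels between members over seed-positive cells thinned to the same depth were mostly weak, with a median of 0.06 in the control and 0.08 in the foxA library over 4851 pairs, and they are given as descriptions. The highest were among SMESG000026791.1, SMESG000030049.1 and SMESG000046938.1, between 0.72 and 0.79 in control and between 0.79 and 0.93 in foxA cells. SMESG000030049.1 and SMESG000072446.1, used below, were named after their values were seen.

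SMESG000026791.1 was concentrated in these cells. In the control library it made up at least 1% of the UMIs of 15 of the 207 seed-positive cells (7.25%, 4.11% to 11.7%), and those 15 cells held 97.1% of its UMIs in seed-positive cells. In the foxA library the count was 6 of 390 cells (1.54%, 0.57% to 3.32%), which held 90.4%. SMESG000030049.1 was detected in 15 of 15 such control cells and in 6 of 6 such foxA cells, beside 13 of the other 192 and 12 of the other 384. SMESG000046938.1 was detected in 9 of 15 and 6 of 6, beside 2 of 192 and 1 of 384. SMESG000072446.1 was detected in 13 of 15 and 6 of 6, beside 18 of 192 and 58 of 384. These genes were singled out for their correlation with SMESG000026791.1 over the same cells, so their detection describes the subset and adds no separate evidence. The log2 ratio of the share of such cells among seed-positive cells, foxA over control, was -2.24 (-3.89 to -0.79).

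The common members differed in these cells, some lower and some not. SMESG000038351.1 had 378 CPM over the 15 control cells against 6045 CPM over the other 192, and SMESG000055421.1 had 7560 and 36213 CPM. In foxA cells the values were 1030 and 5787 CPM for SMESG000038351.1 and 19446 and 41993 CPM for SMESG000055421.1. SMESG000080788.1, a common member chosen after its values were seen, was not lower, with 5141 and 3528 CPM in control and 8371 and 3984 CPM in foxA cells. The median depth of the SMESG000026791.1 cells was 625 UMIs in control, beside 923.5 in the other seed-positive cells, and 1376.5 in foxA, beside 1358. Over whole libraries, 16 of 5978 control and 8 of 6781 foxA cells had at least 1% of their UMIs from SMESG000026791.1, and 14 and 8 of these lay in the intermediate group. The log2 ratio of these shares was -1.18 (-2.61 to 0.13), and this interval spanned 0.

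The shift in foxA RNAi was first measured over whole libraries, as log2 of (CPM + 1) in foxA over control for genes with at least 100 UMIs over both libraries. A total that is higher can come from more cells or from more RNA per cell, which whole-library sums cannot tell apart. Of the 99 members, 4 were at least 2-fold higher, beside 2.26% of 11477 genes, and 3 were at least 2-fold lower, beside 2.33%. The median log2 ratio was 0.33 over the members and 0.08 over all genes. Of the members 77 were above 0, but so were most of the 11477 genes, since their median was above 0. The median member was therefore somewhat higher in the foxA library, beside the larger share of seed-positive cells, and few members passed 2-fold.

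SMESG000016663.1 had 250 UMIs (58.2 CPM) in control and 1670 UMIs (213 CPM) in foxA. It rose by a log2 ratio of 1.85 (1.68 to 2.07), and it was also higher in zero-seed cells, at 81.5 CPM in foxA and 19.8 CPM in control. Cluster 20, where it stood at 1253 CPM, had 20 control and 127 foxA cells, and the part of this in the rise was not tested. SMESG000024875.1 had 122 UMIs (28.4 CPM) and 568 UMIs (72.4 CPM), a log2 ratio of 1.32 (1.07 to 1.65), which was 0.91 in thinned cells. SMESG000026791.1 had 584 UMIs (136 CPM) in control and 402 UMIs (51.3 CPM) in foxA, a log2 ratio of -1.39 (-1.59 to -1.22). That fall rests on the few cells described above. SMESG000052481.1 had 289 UMIs (67.3 CPM) and 237 UMIs (30.2 CPM), a log2 ratio of -1.13 (-1.41 to -0.90), which was -0.97 when per-cell CPM was averaged.

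Measured within seed-positive cells, the members were not higher in the foxA library. Their median log2 ratio was -0.11, beside 0.13 over the 3159 genes with at least 50 UMIs in these cells. Of the 99, 1 was at least 2-fold higher, beside 5.82% of genes, and 9 were at least 2-fold lower, beside 2.91%. The counting interval lay above 0 for 18 members, beside 14.1% of genes, and below 0 for 32, beside 9.43%. It spanned 0 for 49 members, and such counts depend on the UMIs of each gene. The 9 lower members had log2 ratios between -2.12 and -1.04, and each had at least 103 UMIs in seed-positive cells. Among seed-positive cells of cluster 5 alone, 8 of the 9 were again at least 2-fold lower, and in the seed-high group 7 of the 9 were. Leaving out the cells with at least 1% of SMESG000026791.1 left 8 lower members of the 97 that could still be compared. In zero-seed cells the median over the members was 0.41, beside 0.09 over all genes. The rule took members for high control levels in seed-positive cells and low ones in zero-seed cells. That choice by itself tends to lower the ratios in seed-positive cells and to raise those in zero-seed cells. The same does not hold for all genes, so these differences from all genes are not read as a foxA shift.

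**Figure D5:**
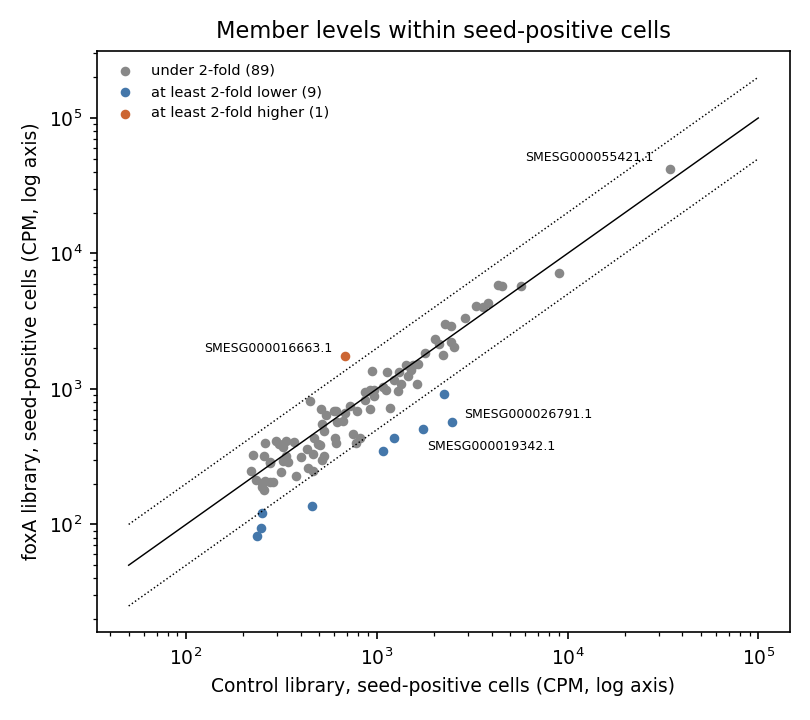
Level of each of the 99 members in seed-positive cells of the control library (horizontal, CPM, log axis) and of the foxA library (vertical, CPM, log axis). The solid line marks equal levels and the dotted lines a 2-fold difference; 9 members lie at or below the lower dotted line, 1 above the upper one and 89 between them.

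SMESG000026791.1 had the lowest ratio, with 2466 CPM in control and 566 CPM in foxA seed-positive cells, a log2 ratio of -2.12 (-2.32 to -1.93). Since the gene was in few cells, its interval, which counts UMIs, is too narrow, and the counts of cells above are the better guide. It was followed by SMESG000019342.1, with 1747 CPM in control and 508 CPM in foxA, a log2 ratio of -1.78 (-2.00 to -1.56). This gene was detected in 38.1% of thinned control and 12.8% of thinned foxA seed-positive cells. In the seed-high group it stood at 1770 CPM in control and 461 CPM in foxA, a log2 ratio of -1.94 (-2.18 to -1.71). In the intermediate group the values were 744 and 335 CPM, a log2 ratio of -1.15 (-1.66 to -0.64). In the seed-poor group, where it was highest, it had 5221 CPM in control and 5690 CPM in foxA, a log2 ratio of 0.12 (-0.16 to 0.41). The gene was thus lower in the foxA library in the seed-high and intermediate groups, and in the seed-poor group the interval spanned 0. This did not follow the seed cell by cell. In the intermediate group 76 of 121 control and 118 of 191 foxA cells held 0 seed UMIs. In the zero-seed cells of cluster 5 the gene stood at 773 CPM in control and 300 CPM in foxA. With 1 library per condition the difference between the groups has no replicate check.

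SMESG000016663.1 was the only member at least 2-fold higher within seed-positive cells, with 679 CPM in control and 1738 CPM in foxA. Its log2 ratio was 1.35 (1.11 to 1.61). It was detected in 19.3% of thinned control and 33.6% of thinned foxA seed-positive cells. Next was SMESG000024875.1 with 447 and 818 CPM, a log2 ratio of 0.87 (0.56 to 1.20). The ratios of the abundant members were under 2-fold. SMESG000055421.1 had a log2 ratio of 0.27 (0.24 to 0.31), SMESG000003089.1 of 0.43 (0.33 to 0.53), SMESG000004901.1 of -0.33 (-0.40 to -0.25) and SMESG000038351.1 of 0.00 (-0.09 to 0.10). The seed's own level in these cells, which the threshold on seed UMIs shapes, was 6782 CPM in control and 7619 CPM in foxA.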

How the data were processed

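The files held whole-number UMI counts per gene and cell barcode, deposited by the authors without normalization. Per the file headers the matrices come from Cell Ranger 6.1.2, while the submitters' processing notes name version 7. The genome build and cell-calling settings were not given in the sources used here. Cells with at least 200 genes were kept, which removed 78 control and 17 foxA cells and left 4295899 and 7840511 UMIs. The lowest kept cells had 286 and 440 UMIs, so the floors differed.

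Members, lists, groups and alternatives were chosen with earlier results of these data known. With 1 library per condition no test was made and no p-value is given. Sums of UMIs were scaled to CPM and compared as log2 of (CPM + 1), which understates changes of low genes. A gene is called at 2-fold. Intervals are exact 95% intervals, Clopper-Pearson for shares and conditional binomial for ratios. Because the counts come from 3′ ends, order by UMIs takes no account of transcript length. Scrublet, set to an expected doublet rate of 5%, called 1 control and 0 foxA doublets at its automatic threshold. These calls were not used and none were removed. How many doublets remain was not tested. Clusters came from scanpy 1.11.5 and igraph 0.11.9 (2000 variable genes, 30 components, 15 neighbours, Leiden resolution 0.5; 1.0 for the finer groups). Named genes are the seed, the 10 highest ratios, the 5 with most control UMIs, the 3 on each side of the boundary, the 3 highest and 3 lowest by specificity, the 3 highest outside seed-positive cells, and the 2 highest and 2 lowest shifts of each kind. Others are said to be chosen after their values were seen. The enrichment calculation was tested on simulated data.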

Additional observations from a re-analysis of the deposited data

How the results depend on the processing

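No main value changed direction under the alternatives tried. Of the recomputed main values 76 stayed within a range around the main value or within 1.5 times, and 16 moved by more. That range was counting error only for the share of seed-positive cells. For medians over the members it was taken from the spread among members, which is not counting error and is not printed here. The log2 ratio of the share of seed-positive cells moved from 0.73 to 0.23 with at least 500 genes per cell, 0.46 in thinned cells, 1.04 with at least 5 seed UMIs and, added after seeing the data, 0.43 with at least 1 seed UMI in thinned cells. The median percent of a member's UMIs in seed-positive control cells moved from 70.3% to 79.3% with at least 500 genes, 39.3% in thinned cells, 83.5% with at least 1 seed UMI, 55.9% with at least 5, 50.2% with seed UMIs at 0.5% of the cell and 66.7% in cluster 5 alone. The 4 members 2-fold higher over whole libraries became 2 with at least 500 genes, 1 in thinned cells, 2 with a pseudocount of 5 CPM and 2 with at least 500 UMIs per gene. The 3 lower became 1 with the mean of per-cell CPM. The median whole-library shift moved from 0.33 to 0.19 with at least 500 genes. The rule took between 73 and 99 of the members again, and the median within seed-positive cells lay between -0.23 and -0.04, with 5 to 11 members 2-fold lower. No paired analysis was possible because control and foxA RNAi are 1 library each.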

Other observations

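The genes that most set the seed-poor cells apart from all other cells were mostly outside the list. Ranked by (CPM + 10) over all other cells, SMESG000024741.1 came first, with 331 UMIs (11756 CPM) in the 41 control cells and 791 UMIs (12365 CPM) in the 64 foxA cells, beside 6.56 CPM in the seed-high group. SMESG000003214.1 came next, with 211 UMIs (7494 CPM) and 742 UMIs (11599 CPM), beside 1.31 CPM in the seed-high group. Both were present in either library and nearly absent from the seed-high cells. Of the 10 leading genes 0 were members, of the 20 leading genes 1 was, and of the 50 leading genes 4 were. Over all features, 99 of 22016 were members, so most genes in any such ranking would lie outside the list. All other cells include the seed-high cells, which lowers the ratio of any member shared with them. The counts of members among the leading genes are therefore not read as a trait of the group. Because the genes took part in the clustering, these values describe the group and do not test it.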
